A study of Homo sapiens with 12 samples.

Results

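Complement is a cascade of plasma and cell-surface proteins that tags cells and microbes for removal and can punch pores in membranes, and the genes described here encode 9 of its components and regulators. They were taken by gene symbol from the 43769 genes of a count table, and the list was drawn up with earlier results of these data known. C1R and C1S encode the serine proteases of the C1 complex, which starts the classical pathway, and SERPING1 encodes the C1 inhibitor, the serpin that inactivates both proteases. C3 encodes the central protein on which all pathways converge, CFB encodes factor B, the protease of the alternative pathway, and CFI encodes factor I, which cuts activated C3 and C4 fragments. CD46 (membrane cofactor protein), CD55 (decay-accelerating factor) and CD59 (which blocks the membrane attack complex) are cell-surface regulators that keep host cells from being attacked by their own complement. Liver supplies most of the complement in plasma, many other cell types make components locally, and several of the soluble components are known interferon-responsive genes.

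RNA sequencing was performed on SK-N-DZ, an established human neuroblastoma cell line in which MYCN is amplified and ARID1A is wild-type, and the cells carried a doxycycline-inducible short hairpin RNA against ARID1A, a DNA-binding subunit of the SWI/SNF chromatin remodeling complex. There were 4 groups with 3 libraries each: control (C, neither agent), Dox (D, doxycycline for 4 days), IFN (I, interferon gamma, IFNγ, for 24 h) and Dox IFN (DI, both agents). The line is a clone, the hairpin used for these libraries is not given in the sources used here, and all 4 groups carry the construct, so that an effect of the drug itself and an effect of the hairpin cannot be told apart. The labels name the libraries of a group as separate samples without saying that they came from separate cultures, so p-values measure the spread between these samples, which may be technical.

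Libraries held 16469832 to 21790869 counts. Levels are given as CPM, each count scaled to a common library size after a correction for composition (TMM), and 3 counts, the floor used for detection, correspond to 0.135 to 0.187 CPM. The IFNγ label was borne out by IRF1, a known IFNγ response gene, which rose in I over C by 7.58 on the log2 scale (adjusted p = 2.75e-09). The C libraries held 196.8, 186.2 and 164.7 CPM of ARID1A transcript, against 196.9, 158.9 and 158.2 CPM with doxycycline alone. With IFNγ alone the values were 192.0, 202.6 and 193.5 CPM, and with both agents they were 151.4, 133.1 and 147.7 CPM. The DI and I libraries did not overlap for it, the D and C libraries did, and neither contrast passed the test (log2 fold change −0.44, adjusted p = 0.115, and −0.09, adjusted p = 0.788). DESeq2 (adjusted p = 0.0149) and a fit with the replicate number as a block (adjusted p = 0.0111) called ARID1A lower in DI than in I, and neither called it in D against C. With all doxycycline libraries against all others, the log2 fold change was −0.27 (edgeR adjusted p = 0.0606). There DESeq2 (adjusted p = 0.0206) and the block (adjusted p = 0.00858) called it lower. The paper reports less ARID1A by qPCR and Western blot in its doxycycline-treated SK-N-DZ hairpin line. All 9 markers of the adrenergic neuroblastoma state were present, summing to 4222 to 5583 CPM. Single markers varied more than the sum, with TH at 0.695 to 74.7 CPM and DBH at 79.1 to 441.9 CPM over the libraries. The 4 leukocyte markers summed to at most 1.5 CPM with CD3E at 0, and the 4 hepatocyte markers to at most 0.985 CPM with TTR and SERPINA1 at 0. The 3 endothelial markers summed to at most 2.95 CPM with PECAM1 at 0.

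Sequence around interferon motifs in the members' promoters is shown first, as context for the values. The gamma-activated site (GAS), a short DNA element found at many IFNγ-responsive genes, was searched as TTCNNNGAA on both strands, where N is any base. Interferon regulatory factors bind the interferon-stimulated response element (ISRE), searched as GAAA, any 2 bases, and GAAA on both strands. RefSeq's promoter table (GRCh38.p14; 250 bases before to 50 after each start site) had entries for 6 of the 9 members, in 11 windows: C1R, CFB, CFI, CD46, CD55 and CD59, but not C1S, SERPING1 or C3. A GAS match was found for C1R, CFB and CD59, and an ISRE match for CFB. Each stretch below holds 30 bases, 5′ to 3′ on the gene's strand, with the match in capitals:
C1R GAS, 86 bases before one of its start sites, chr12:7091960-7091989, minus strand: gccagtcctaTTCCTGGAAggggaggggag
CFB GAS, 92 bases before the start site, chr6:31945993-31946022, plus strand: cgcttggatgTTCCGGGAAagtgatgtggg
CFB ISRE, 140 bases before the start site (the match reads on the opposite strand), chr6:31945945-31945974, plus strand: acttctgcagTTTCTGTTTCcttgactggc
CD59 GAS, 128 or 184 bases before start sites, chr11:33736588-33736617, minus strand: ccacccggccTTCTCAGAAcctgggccagg

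The GAS letters occur in 7.66% and the ISRE letters in 3.57% of all 35116 windows of this length in the table. The C1R and CFB stretches also lie inside annotated exons of other transcripts of these genes. No GAS or ISRE match was found in the windows of CD46, CD55 or CFI. A loose NF-κB pattern was present in windows of C1R, CFB, CD46, CD55 and CD59 and in 58.7% of all windows. Of the members with a GAS match, C1R was called higher in both IFNγ contrasts and CD59 in neither. CFB was called in that without doxycycline. It had passed the filter on low counts only through the libraries with IFNγ, so this call is not counted. A match in letters is a description of the window and not evidence of binding.

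The first question was which members responded to IFNγ in cells without doxycycline. Of the 9 members, 7 passed the filter on low counts and were tested. C1S, C1R and SERPING1, 3 of the 6 that passed it also without IFNγ, were higher in I than in C, where 2.10% of the 15828 genes tested were called higher. CFB was called higher too but had passed the filter only through the libraries with IFNγ, so it had to differ and is not counted. CD46, CD55 and CD59 were not called in either direction. A gene was called when its p-value, adjusted by Benjamini and Hochberg over all genes tested with edgeR's quasi-likelihood test, was under 0.05. The median log2 fold change was 1.51 over the 6 members other than CFB (2.93 with it) and −0.0081 over all genes tested. Because the members were chosen with earlier results of these data known, such shares and medians, here and below, describe the list and do not test it.

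C1S (chr12:6988259-7071032, plus strand, GENCODE 29 on GRCh38) stood at 2.34, 2.53 and 0.810 CPM in C and at 134.5, 166.9 and 76.4 CPM in I. Every I library was far above every C library, and the rise was 6.04 on the log2 scale (SE 0.48, adjusted p = 2.07e-05). C1R, which neighbors C1S on the opposite strand (chr12:7080199-7092607), stood at 2.83, 3.18 and 2.62 CPM in C. In I it stood at 45.9, 55.1 and 33.8 CPM, again with no overlap, a rise of 3.96 on the log2 scale (SE 0.52, adjusted p = 0.00109). The C1R gene overlaps C1RL on the same strand, so part of the reads in the shared stretch may belong to either gene.

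SERPING1 (chr11:57597387-57614853, plus strand) had, per kilobase of exon, the highest level of the soluble members before any treatment. Its C libraries held 66.4, 86.4 and 58.5 CPM and its I libraries 518.7, 643.1 and 453.4 CPM. The groups did not overlap, and the change was 7.64-fold, or 2.93 on the log2 scale (SE 0.36, adjusted p = 0.000663). The fold was thus smaller than that of either protease while the level reached was, again per kilobase, the highest of all members.

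CFB (chr6:31945650-31952084, plus strand) came from near silence. Its raw counts were 0, 2 and 0 in C and 34, 55 and 23 in I, with no library of C or D at the filter's level. The ratio of summed, scaled counts was 51.0 (95% interval from counting error alone, 13.8 to 426), and the fitted log2 fold change of 5.50 (SE 1.09, adjusted p = 0.0215) depends on how counts of 0 are handled. The call was lost when replicate 1 or 3 of C, or replicate 1 or 2 of I, was left out (adjusted p = 0.058 to 0.124), when replicate number 3 was left out of every group (adjusted p = 0.0734) and at a threshold of 0.01.

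C3 and CFI were not detectable at this depth in any group. C3 had 5 counts over all 12 libraries, no library with more than 2, and CFI had 1 count in all. IFNγ was accompanied by no signal of either gene, with 0 counts of C3 in the 3 I libraries and 1 count of CFI.

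The summed level of 1 set of markers of other cell types was higher in I than in C. Fibroblast or mesenchymal markers (COL1A1, COL1A2, PDGFRB and LUM, all 4 with a mean of at least 1 CPM) summed to 65.3 to 107.6 CPM in the I libraries, above the 32.5 to 56.7 CPM of C. The DI sums, 45.6 to 85.9 CPM, overlapped the 23.0 to 52.8 CPM of D. PDGFRB alone ran from 17.2 to 81.6 CPM, while COL1A2 reached at most 23.9, COL1A1 5.02 and LUM 4.62 CPM. COL1A1 was at 0 CPM in its lowest library. Single markers were not compared between groups, so the sums may follow PDGFRB. All these samples are of a cloned line. The part of these markers in the rise of the soluble members was not tested, and in bulk samples more cells of a type and more RNA per cell cannot be told apart.

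**Figure D1:**
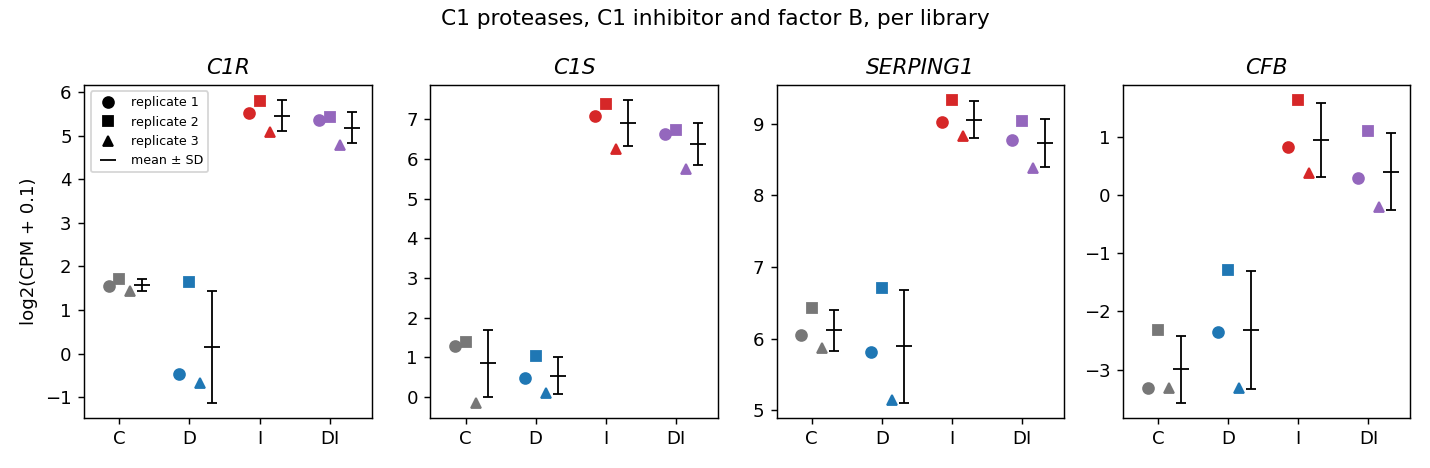
Level of C1R, C1S, SERPING1 and CFB in each library, as log2(CPM + 0.1) on the vertical axis, by group (C, D, I, DI); symbols are replicates and the bar is the mean ± SD of 3 libraries. The I and DI libraries of all 4 genes sit above the C and D libraries, and CFB and C1R spread most among the D libraries.

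The membrane regulators were detected in all libraries and none passed the test for IFNγ. CD59 (chr11:33703010-33736491, minus strand) held 65.6, 73.9 and 76.7 CPM in C and 64.8, 67.1 and 72.5 CPM in I, with overlapping groups and a log2 difference of −0.08 (95% interval −0.34 to 0.18). CD55 (chr1:207321376-207386804, plus strand) held 15.5, 11.4 and 19.3 CPM in C against 14.6, 12.1 and 16.8 CPM in I (log2 difference −0.09, −0.61 to 0.44). CD46 (chr1:207752057-207795513, plus strand) held 92.9, 80.3 and 148.1 CPM in C against 90.5, 89.2 and 160.1 CPM in I (0.08, −0.72 to 0.88). The interval is narrowest for CD59 and still admits a change of almost a doubling for CD46, whose replicates spread widely in every group. These intervals take no account of replicate number. Between I and C libraries of the same number, CD46 differed by −0.04, 0.15 and 0.11 on the log2 scale.

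Because counts grow with transcript length, levels are compared between genes only as CPM per kilobase of exon. On that scale the mean order in C was SERPING1 (19.5), CD46 (12.3), CD59 (6.96), CD55 (2.60), C1R (0.489), C1S (0.293) and CFB (0.00663). In I it was SERPING1 (149.4), C1S (19.5), CD46 (13), C1R (7.64), CD59 (6.58), CD55 (2.45) and CFB (0.393). With IFNγ, C1S moved past C1R and all 3 membrane regulators on average, although C1S and CD46 libraries overlapped in I (11.8 to 25.8 against 10.2 to 18.4 CPM per kb). C1R and CD59 also overlapped in I (5.74 to 9.37 against 6.25 to 7.0).

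The IFNγ response was then examined in cells given doxycycline, DI against D. Since ARID1A was not called lower in D than in C, these libraries are named by the drug and not by a knockdown. Again C1S, C1R and SERPING1 were called higher, 3 of the 6 counted above, where 1.67% of all genes tested were called higher. C1S stood at 1.29, 1.97 and 0.985 CPM in D and at 98.7, 105.7 and 54.1 CPM in DI, a rise of 5.92 on the log2 scale (SE 0.48, adjusted p = 2.95e-05). C1R stood at 0.620, 3.00 and 0.521 CPM in D and at 40.9, 42.8 and 27.4 CPM in DI, a rise of 4.73 (SE 0.55, adjusted p = 0.000497). Replicate 2 of D lay well above the other two D libraries for C1R, and without it the rise was 6.0 (adjusted p = 6.76e-06).

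SERPING1 held 56.2, 104.7 and 35.4 CPM in D and 437.1, 526.8 and 331.9 CPM in DI, with no overlap and a rise of 2.72 on the log2 scale (SE 0.35, adjusted p = 0.00132). CFB counts were 2, 6 and 0 in D and 22, 40 and 17 in DI, a ratio of summed, scaled counts of 9.29 (4.49 to 22.3), and the groups did not overlap. CFB was not called here (log2 fold change 3.20, adjusted p = 0.197), but was called with the replicate block (adjusted p = 0.0068), where 3.77% of all genes were called higher, and by DESeq2 (adjusted p = 0.0121). As it had passed the filter only through the libraries with IFNγ, these calls are not counted either. CD46, CD55 and CD59 differed by 0.21, −0.06 and 0.12 on the log2 scale, and none was called.

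Whether the response to IFNγ differed with doxycycline was tested directly, as the interaction of both agents. No member was called in it, nor was any other gene (0 of 15828, or 0%, by edgeR; 99 genes had an unadjusted p under 0.05 and DESeq2 called 1 gene, which was not a member; no member had an unadjusted p under 0.05). With the replicate number as a block within each doxycycline arm, 4 genes were called and no member. An unadjusted p under 0.05 was found in that fit for 2 members and for 827 of 15828 genes. With the plain block it was found for 1 member and for 374 genes. The difference between the responses, on the log2 scale, was 0.77 for C1R (95% interval −0.74 to 2.29), −0.12 for C1S (−1.51 to 1.27), −0.21 for SERPING1 (−1.25 to 0.83) and −2.30 for CFB (−5.50 to 0.90). For CD46, CD55 and CD59 it was 0.13, 0.03 and 0.21. Each of the intervals of the soluble members included 0 and, in at least one direction, a difference greater than a doubling.

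**Figure D2:**
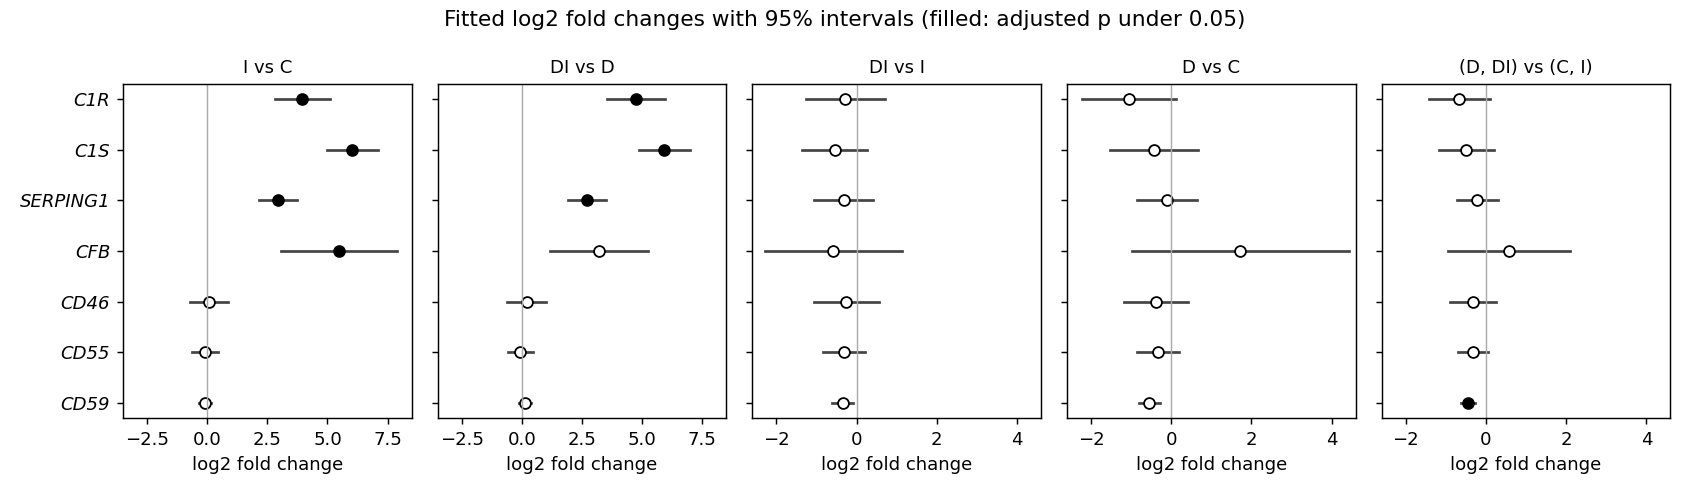
Fitted log2 fold changes of the 7 members tested (vertical axis) in 5 contrasts, with 95% intervals as lines; filled points have an adjusted p under 0.05. The IFNγ contrasts hold the filled points for C1R, C1S, SERPING1 and, without doxycycline, CFB, and the contrast of all doxycycline libraries against the others holds only CD59.

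With IFNγ present in both groups, DI against I asks what doxycycline changed in stimulated cells. None of the 7 members tested was called by edgeR or, CFB having no adjusted p there, by DESeq2, where edgeR called 0.670% of all genes tested in either direction and 1 member, CD59, had an unadjusted p under 0.05, as did 12.2% of all genes. All 7 estimates nevertheless lay below 0: −0.55 for C1S, −0.28 for C1R, −0.32 for SERPING1, −0.58 for CFB, −0.25 for CD46, −0.31 for CD55 and −0.35 for CD59. The median over the members was −0.318, against −0.00678 over all genes tested.

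The libraries of DI and I overlapped for every member except CD59. For CD59 an exact permutation test gave p = 0.1, the smallest possible for 3 against 3. The share of all genes whose DI and I libraries did not overlap was not determined. CD59 held 51.0, 50.5 and 59.4 CPM in DI, below the 64.8 to 72.5 CPM of I (95% interval of the log2 difference −0.60 to −0.09, adjusted p = 0.255). Libraries with the same replicate number resembled each other across groups, and taken in those pairs the DI library was the lower one in 21 of 21 pairs of the 7 members. Of all genes tested, 24.5% were lower in all 3 pairs, and with library size alone as the scaling the members again gave 21 of 21 and all genes 16.5%. The members of a library share its scaling, so these pairs are not independent. With the replicate number as a block, CD59 (log2 fold change −0.35, adjusted p = 0.0134) and C1S (−0.53, adjusted p = 0.00923) were called lower in DI, as were 6.62% of all genes in that fit. The level of C1S in DI, 98.7, 105.7 and 54.1 CPM, stayed far above that of any library without IFNγ.

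Without IFNγ, D against C gave no call among the 7 members by edgeR, where 1.23% of all genes tested were called in either direction. Of the members, CD59 alone had an unadjusted p under 0.05, as did 14.2% of all genes. In same-numbered pairs the D library was the lower one in 15 of 21 pairs (14 with library size alone as the scaling), and 3 members were lower in all 3 pairs, as were 22.3% of all genes. The D libraries of CD59 held 44.7, 46.4 and 56.5 CPM, all below the 65.6 to 76.7 CPM of C (log2 fold change −0.55, SE 0.12, adjusted p = 0.0541). The exact permutation test again gave p = 0.1, and the share of all genes without overlap was not determined. CD59 was called by DESeq2 (adjusted p = 0.00308), with the replicate block (adjusted p = 0.00117) and without replicate 3 of D (adjusted p = 0.0441). The block called 7.67% of all genes lower. CD46 was lower in D by an estimate of −0.38 and was called only with the block (−0.41, adjusted p = 0.0141). Its D libraries (56.5, 68.3 and 121.4 CPM) overlapped its C libraries, and replicate 3 was the highest in both groups.

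C1R differed between D and C by −1.05 on the log2 scale (adjusted p = 0.408), with replicates 1 and 3 of D at 0.620 and 0.521 CPM, below all C libraries, and replicate 2 at 3.00 CPM, among them. Without that library the difference was −2.32 (adjusted p = 0.0249), so this one library decides the call, on raw counts of 13, 58 and 9 in D and 46, 64 and 42 in C. For SERPING1 the same library was again the highest of D, and the estimate of −0.11 ran from −0.62 to 0.19 as single libraries were left out. CFB counts in D and C were too few for a comparison (8 against 2 in all, ratio 3.64, 0.727 to 35.2).

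Pooling over IFNγ, the 6 libraries with doxycycline were set against the 6 without. CD59 was the 1 member called, and it was lower with doxycycline, where 4.02% of all genes tested were called lower. Its libraries ran from 44.7 to 59.4 CPM with doxycycline and from 64.8 to 76.7 CPM without, a fold of 0.733 or −0.45 on the log2 scale (SE 0.083, adjusted p = 0.011). The groups did not overlap, as was so in this direction for 3.09% of all genes tested. An exact permutation test therefore gave the smallest p possible for 6 against 6, p = 0.00216. That p restates the separation, and the test took no account of IFNγ or replicate number. The call held in all 12 fits that left out 1 library (adjusted p = 0.00781 to 0.0355) and was lost when replicate number 3 was left out of every group (adjusted p = 0.051). With the replicate block, C1R (−0.71, adjusted p = 0.0452), C1S (−0.47, adjusted p = 0.00728) and CD46 (−0.33, adjusted p = 0.00332) were called lower too, in a fit that called 15.8% of all genes lower.

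**Figure D3:**
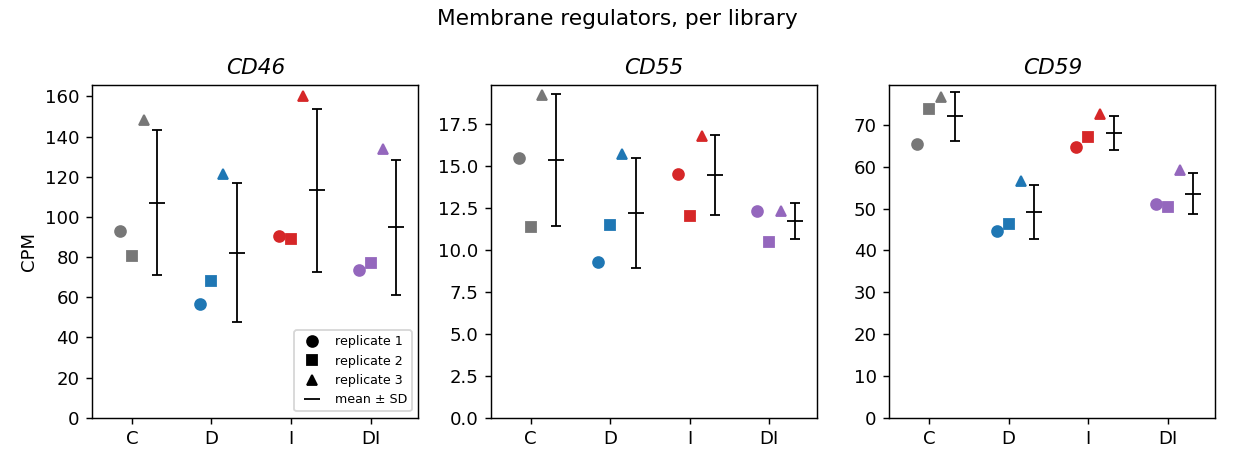
CPM of CD46, CD55 and CD59 in each library on a linear axis from 0, by group; symbols are replicates and the bar is the mean ± SD of 3 libraries. All D and DI libraries of CD59 lie below all C and I libraries, while CD46 and CD55 overlap between groups and replicate 3 is the highest CD46 point in each group.

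The replicates carried a structure of their own. Replicate 3 had the highest CD46 level of its group in all 4 groups (121.4 to 160.1 CPM, against 56.5 to 92.9 CPM for the other replicates) and the highest CD59 level in all 4. The same replicate had the lowest SERPING1 and C1R levels in all 4 groups, for example 331.9 CPM of SERPING1 against 437.1 and 526.8 CPM in DI. After group means were removed, CD46 correlated with CD59 at r = 0.865 and with C1S at −0.869, and C1R with SERPING1 at 0.918. These r describe 12 libraries that share replicate numbers and carry no test. The cause of the replicate difference was not tested.

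The balance between the C1 proteases and their inhibitor was followed within each library, as ratios of CPM per kilobase, a measure chosen after the values were seen. SERPING1 over the sum of C1R and C1S was 21.9, 25.7 and 28.5 in C and 5.03, 5.07 and 7.16 in I, with no overlap. It was 51.2, 35.7 and 40.8 in D and 5.46, 6.19 and 7.06 in DI. The ratio thus stood well above 1 in every library, and was lower in all 6 libraries with IFNγ than in any without.

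As log2 differences, this ratio changed by −2.15 in I against C and by −2.76 in DI against D, and it was higher in D than in C by 0.74. The groups did not overlap in any of these 3 contrasts, so each exact permutation test gave p = 0.1, the smallest that 3 against 3 allows (adjusted 0.25 over 10 ratio tests). That p restates the separation and is no further support. The falls with IFNγ follow from the smaller fold of SERPING1 given above. DI and I overlapped (log2 difference 0.13, exact permutation p = 0.6). C1S over C1R was 0.752, 0.726 and 0.282 in C and 2.67, 2.76 and 2.06 in I, without overlap (log2 difference 2.21, exact permutation p = 0.1, which again restates the separation). In D it was 1.89, 0.597 and 1.72, overlapping the 2.20, 2.25 and 1.80 of DI.

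**Figure D4:**
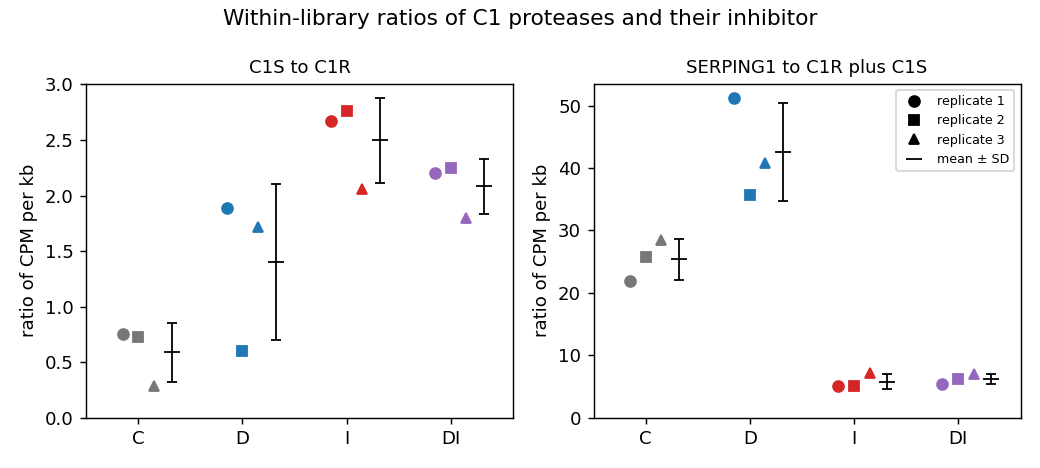
Ratio of CPM per kilobase within each library, on linear axes from 0, for C1S to C1R and for SERPING1 to the sum of C1R and C1S, by group; symbols are replicates and the bar is the mean ± SD of 3 libraries. The inhibitor ratio lies between 5.03 and 7.16 in the libraries with IFNγ and between 21.9 and 51.2 in those without.

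A list of 52 other complement genes was read in the same way. Only 16 of them passed the filter on low counts, and 4 of these 16 were called higher in I than in C, and the same 4 in DI than in D: C2, C4A, C4B and C1RL. C2 and C4B had passed the filter only through the libraries with IFNγ, so they had to differ, and the other 2 calls stand beside 2.10% and 1.67% of all genes. None was called lower, and edgeR called none in the other contrasts, where an unadjusted p under 0.05 was found for 4 of the 16 in DI against I, 1 in D against C, 2 in the interaction and 4 in the pooled doxycycline contrast. Over all genes that share was 12.2%, 14.2%, 0.625% and 23.4%. DESeq2 called C2 in DI against I, and C5 and SUSD4 in the pooled contrast. With the replicate block, C5 (higher), CLU and SUSD4 (both lower) were called in DI against I, in D against C and in the pooled contrast, and C2 (lower) in the first and the last of these, where the block called 10.5%, 13.9% and 29% of all genes. The median log2 fold change of the 16 was −0.166 in I against C. The DI against D call of C4A was lost without replicate 2 of D (adjusted p = 0.0542) and without replicate number 3 of every group (adjusted p = 0.126).

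C2, the classical-pathway protease that C1s cuts and the neighbor of CFB on chromosome 6, had raw counts of 1, 4 and 4 in C and of 0, 2 and 1 in D, which rose to 512, 489 and 441 with IFNγ alone and to 293, 358 and 313 with both agents. Its log2 fold change was 7.14 in I against C (SE 0.43) and 8.07 in DI against D. C2 passed the filter on low counts only through the libraries with IFNγ, so it had to differ in both contrasts. Its calls there are not counted. Its DI libraries all lay below its I libraries (log2 fold change −0.66, adjusted p = 0.401), which DESeq2 (adjusted p = 0.0357) and the replicate block (adjusted p = 0.0449) called. The annotated end of C2 reaches a few bases past the start of CFB, so reads there could belong to either gene.

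C4A and C4B, which encode the near-identical C4 proteins cut by C1s, are given as a sum because reads can be split between them. Without IFNγ the sum was 14, 20 and 20 counts in C and 38, 28 and 52 in D. With it the I libraries reached 852, 863 and 1426 counts and the DI libraries 204, 927 and 590, so the IFNγ groups lay above the others and the DI libraries spread widely. C1RL, a C1r-like protease gene, rose by 0.94 in I against C (adjusted p = 0.00365) and by 0.96 in DI against D (adjusted p = 0.00394). Its overlap with C1R on the same strand applies to these values as well.

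C5, CLU (clusterin, a fluid-phase inhibitor of the membrane attack complex) and C1QBP (a mitochondrial protein that can bind C1q) were present and not called in I against C. C5 held 12.2, 15 and 5.61 CPM in C, CLU 100.2, 126.8 and 115.7 CPM, and C1QBP 417.7, 373.2 and 444.8 CPM. With the replicate block, CLU was called higher with IFNγ in both IFNγ contrasts.

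The genes whose profile over the 12 libraries was most like that of an IFNγ-responsive member, among 13960 or 13961 genes compared by Pearson's r of log2 CPM, are given as a description. For C1S they were TRIM22 (0.998), STAT2 (0.998) and UBE2L6 (0.995), and for C1R LGALS3BP (0.991), SERPING1 (0.986) and NOD1 (0.984). For SERPING1 they were STAT3 (0.989), ERAP2 (0.989) and HLA-E (0.988), and for CFB RSAD2, LRRTM2 (both 0.979) and SECTM1 (0.976). All points share the same 12 libraries, and each r spans libraries with and without IFNγ.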

How the data were processed

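The authors sequenced total RNA of the 12 libraries (paired-end Illumina reads) and deposited raw counts per gene, with no normalization; the aligner, counting tool and build are not given in the sources used here. The authors also deposited results tables of their own comparisons (log2 fold changes, p-values, and 18 per-library columns whose names the labels do not explain); none of these was used here. All 43769 gene identifiers were found in GENCODE 29 (GRCh38), which gave positions and exon lengths. Of these genes, 17165 had no count in any library.

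Groups came from the sample labels. Counts were scaled by TMM, filtered with filterByExpr (minimum count 10) and all 12 libraries entered a single quasi-likelihood fit with group as the only term (R 4.3.3 with edgeR 4.0.16 and limma 3.58.1). Tests are two-sided, with Benjamini-Hochberg adjustment over the 15828 genes tested and a threshold of 0.05. DESeq2 1.42.0 was an alternative, and exact permutation tests were run on CPM in R. Promoters were searched in Python 3.11.15. Likeness used log2(CPM + 0.5) for genes with a mean of at least 1 CPM. Intervals of log2 fold changes come from the edgeR fit and carry the spread between libraries, while the intervals of count ratios and the floor of 3 counts cover counting error only. The code was tested on simulated counts.

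Named genes were all 9 members, ARID1A, IRF1, called genes of the list of 52 other complement genes, and the 3 genes most like each member called in I against C. C5, CLU, C1QBP and SUSD4 were added after their values were seen. One gene that the rule names is not reported here. The members and lists were chosen with earlier results of these data known.

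Replicates differed by more than counting noise (chi-square per gene 19.8 to 85.5 between 2 libraries of a group). Deviations from the group means correlated at 0.321 to 0.839 between same-numbered libraries (18 pairs), and at −0.663 to 0.183 between libraries differing in both number and group (36 pairs), so the numbers were taken to pair the libraries, from the data and not from the labels.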

Additional observations from a re-analysis of the deposited data

How the results depend on the processing

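Leaving out each library in turn, other scalings and filters, only the groups compared, DESeq2, a threshold of 0.01 and the replicate block were tried, and leaving replicate number 3 out of every group was chosen after seeing the data. C1R, C1S and SERPING1 kept both IFNγ calls in all of these fits. With the replicate block, members called numbered 2 in DI against I, 2 in D against C and 4 in the pooled doxycycline contrast, beside 10.5%, 13.9% and 29% of all genes. Blocking within each doxycycline arm gave 5 in DI against D, all higher or lower calls counted. Of all genes, 1770 were called there in either direction, and 1105 of them, or 6.98% of the genes tested, were called higher. The added members were CD46 (0.23, adjusted p = 0.0372) and CFB, which had passed the filter only through the libraries with IFNγ. The block changed no other call of a member in the paired fit than those given with the results. DESeq2 gave 1 in D against C. The pooled contrast gave 0 at a threshold of 0.01 and 0 without replicate number 3. Leaving out 1 library gave 0 to 1 members in D against C and 1 to 2 in the pooled contrast, where C1R was called without replicate 2 of D (−1.30, adjusted p = 0.00694).

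Estimates that changed sign as single libraries were left out were all uncalled. They were CD46 in I against C (−0.27 to 0.39), DI against D (−0.12 to 0.61) and DI against I (−0.59 to 0.094), CD55 in I against C (−0.27 to 0.11) and DI against D (−0.22 to 0.17), SERPING1 in D against C (−0.62 to 0.19) and CFB in the pooled contrast (−0.088 to 1.94). In the interaction they were C1S (−0.38 to 0.23), CD46 (−0.20 to 0.53), CD55 (−0.16 to 0.26) and SERPING1 (−0.51 to 0.30). Without replicate number 3, CD55 in DI against D was 0.15, SERPING1 in D against C 0.068 and C1S in the interaction 0.054. In same-numbered pairs CD46 differed by −0.29, −0.21 and −0.26 in DI against I and by 0.38, 0.18 and 0.14 in DI against D. In I against C its pairs differed in sign (−0.04, 0.15 and 0.11), as did those of CD55 in both IFNγ contrasts. Why estimates changed sign as libraries were left out was not tested.

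Over all genes, calls without and with the block numbered 350 and 953 in I against C, 273 and 706 in DI against D, 106 and 1658 in DI against I, 194 and 2200 in D against C and 1216 and 4593 in the pooled contrast. DESeq2 called 529, 405, 471, 650 and 1996. With only the 6 libraries compared, edgeR called 0 in DI against I (1508 at an unadjusted p under 0.05) and 16 in D against C. Among the other complement genes, the fit of DI and D alone called 1 (C2). C1RL lost both IFNγ calls without replicate number 3 (adjusted p = 0.0987 and 0.112), and C4A lost that in DI against D. Depth limits CFB most, with 201 counts in all.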
